A study of Mus musculus with 15 samples.

Results

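A set of 10 genes of the circadian clock and its outputs was followed through resting and restimulated Th2 cells of Asb2 conditional knockout and control genotype. The genes were Nfil3, Bhlhe40, Bhlhe41, Per1, Per2, Cry1, Cry2, Nr1d1, Nr1d2 and Dbp. They were taken by gene name from 56748 genes with a row in the tables of counts and of TPM, a level corrected for transcript length and library size. All 10 passed the filter on low counts, which left 15619 genes for testing. The study compared RNA of mouse T helper 2 (Th2) cells of these genotypes, at rest and after renewed engagement of the T cell receptor. ASB2 picks the substrates of an E3 ubiquitin ligase. Conditional knockout (cKO) cells had the genotype VEC-Cre;Asb2fl/fl, and control cells had Asb2fl/fl alone, so both carried the floxed alleles. The VE-cadherin promoter drives the Cre; it works in endothelial cells and in the cells that found blood lineages, so its activity is not limited to T cells. Naive CD4+ T cells from spleens of female mice were driven towards the Th2 fate over 3 days with the cytokines interleukin 4 (40 ng/ml) and interleukin 2 (10 ng/ml), anti-IFNγ (10 µg/ml), anti-CD28 (1 µg/ml) and coated anti-CD3ε (5 µg/ml). For all cells the labels then give 3 days in interleukin 2 and interleukin 4 at 20 ng/ml each without antibodies. Stimulation began on day 5 and lasted 24 h, with 2 µg/ml of anti-CD28 in solution and 3 µg/ml of anti-CD3ε on the plate. How day 5 falls within those 3 days is not stated here, so stimulated cells may have had less time without antibodies. There were 4 stimulated and 3 non-stimulated cKO libraries, and 5 stimulated and 3 non-stimulated control libraries. Whether libraries of a group came from separate animals is not in the labels, so p-values measure the spread between these libraries only.

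The clock of mammalian cells is a loop of transcription. CLOCK with BMAL1 (gene Arntl) binds E-boxes and turns on the period genes (Per), the cryptochrome genes (Cry), the REV-ERB genes (Nr1d1 and Nr1d2), Dbp and the DEC genes (Bhlhe40 and Bhlhe41), and PER with CRY then represses CLOCK and BMAL1. REV-ERB receptors repress Arntl and also Nfil3, while DBP activates and NFIL3 represses genes through a shared element, the D-box. In T cells some of these factors are also known outside the clock: NFIL3 for its role in cytokine control, and BHLHE40 as a factor that limits interleukin 10 and favours GM-CSF in helper T cells. The labels give a single time after stimulation and no time of day, so a change in level cannot be told apart from a change in the phase of a rhythm.

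Estimated counts summed to between 17.1 and 24.2 M per library. Stimulated cKO replicate 3 stood apart, with 9.43% of its counts on mitochondrial genes against 4.36% to 6.24% in the other libraries. Asb2 RNA averaged 9.49 ± 0.115 CPM, the count scaled to a common library size, in stimulated cKO cells and 33.5 ± 2.72 CPM in stimulated control cells (SD, n = 4 and 5), and 19.2 ± 5.62 CPM in non-stimulated cKO cells and 36.7 ± 12.2 CPM in non-stimulated control cells (SD, n = 3 each). Asb2 was called between the genotypes in stimulated cells (-1.82 ± 0.18, adjusted p = 0.00034, edgeR) but not in non-stimulated cells (-0.94 ± 0.21, unadjusted p = 0.00033, adjusted p = 1), so cKO names the genotype on the label and not an absence of Asb2 RNA. Cd4 and Gata3, defining genes of helper T and Th2 cells, reached 342 CPM or more and 545 CPM or more in every library and were not called on stimulation. Of the 5 T cell markers, however, the other 4 fell in both genotypes: Cd3e by 0.72 in cKO and 0.78 in control cells, Cd3d by 0.50 and 0.47, Cd28 by 0.41 and 0.56, and Trac by 0.36 and 0.46 on the log2 scale (largest adjusted p = 0.019, edgeR). Of the 5 Th2 markers, the cytokine genes Il4, Il5 and Il13 rose and Il4ra fell, by 1.07 in cKO and 1.11 in control cells. Of other cell types, the summed 4 B cell markers stayed at or below 4.95 CPM, the 2 erythroid markers were at 0 in all libraries, and Lyz2, a defining gene of macrophages and neutrophils, was also at 0 in all libraries. The 4 myeloid markers summed to 0.376 to 2.19 CPM in stimulated and 10.5 to 16.9 CPM in non-stimulated cKO cells, and to 0.691 to 2.06 CPM in stimulated and 10.4 to 19.8 CPM in non-stimulated control cells, mostly from Adgre1. The 3 endothelial markers, nearly all of it Pecam1, summed to 44.7 to 58.2 CPM in stimulated and 165 to 197 CPM in non-stimulated cKO cells, and to 44.4 to 77.2 CPM in stimulated and 172 to 191 CPM in non-stimulated control cells. Cdh5, the gene of VE-cadherin itself, had 0 counts in every stimulated library and at most 0.181 CPM in non-stimulated ones. Trdc, of gamma delta T cells, had 10.3 to 18.6 CPM in stimulated and 24.6 to 33.8 CPM in non-stimulated cKO libraries, and 14.5 to 27.8 CPM in stimulated and 31.3 to 49.4 CPM in non-stimulated control libraries. The 3 mast cell and basophil markers summed to at most 1.15 CPM in stimulated libraries, against 3.00 to 13.9 CPM in non-stimulated ones, and the 2 NK cell markers to at most 2.03 CPM, against 3.05 to 18.1 CPM. The 3 dendritic cell markers summed to 2.26 to 5.54 CPM over all libraries, within which Itgax fell and Flt3 rose in both genotypes. The 2 CD8 T cell markers summed to 5.83 to 28.8 CPM, with overlap of all groups. Most of these lists moved with stimulation, and their part in the results was not tested.

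The E-box CACGTG and its variant CACGTT are the letters that CLOCK and BMAL1 are best known to bind, so the promoters that held one are shown. Promoters from RefSeq (build GRCm38.p6) were found for 8 of the 10 genes, all but Bhlhe40 and Per2. The 250 bases before each start were searched on both strands. The 8 genes have 9 such windows, since Per1 has a pair of starts. CACGTG was found in 3 of the 9 and CACGTG or CACGTT in 5, each in a different gene, against 6.02% and 9.57% of 32851 promoters searched over the same 250 bases. Each window is printed 5′ to 3′ on the strand of its gene and is cut at the first base inside an annotated exon of that gene. The search covered all 250 bases. For Bhlhe41 and Dbp only the first 112 and 91 of these lay before such an exon base. Capitals mark CACGTG, or AACGTG where CACGTT lies on the other strand.
Bhlhe41 at chr6:145865559-145865670, minus strand: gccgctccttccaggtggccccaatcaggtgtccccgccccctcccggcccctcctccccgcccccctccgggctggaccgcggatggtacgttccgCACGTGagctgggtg
Per1 at chr11:69098699-69098947, plus strand: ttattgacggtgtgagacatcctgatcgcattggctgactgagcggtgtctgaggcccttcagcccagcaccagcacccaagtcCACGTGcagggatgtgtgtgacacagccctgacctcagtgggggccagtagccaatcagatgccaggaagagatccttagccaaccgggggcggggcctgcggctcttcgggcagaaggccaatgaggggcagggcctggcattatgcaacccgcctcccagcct
Cry1 at chr10:85185065-85185304, minus strand: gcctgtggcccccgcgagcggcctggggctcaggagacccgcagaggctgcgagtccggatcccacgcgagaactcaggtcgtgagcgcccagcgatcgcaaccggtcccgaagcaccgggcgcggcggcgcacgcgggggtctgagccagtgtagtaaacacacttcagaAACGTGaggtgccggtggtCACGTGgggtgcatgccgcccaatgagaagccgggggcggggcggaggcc
Cry2 at chr2:92434070-92434319, minus strand: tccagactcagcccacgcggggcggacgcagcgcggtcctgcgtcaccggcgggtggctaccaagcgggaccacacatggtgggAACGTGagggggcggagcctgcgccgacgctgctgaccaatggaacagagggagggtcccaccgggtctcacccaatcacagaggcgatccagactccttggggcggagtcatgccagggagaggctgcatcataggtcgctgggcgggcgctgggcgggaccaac
Nr1d1 at chr11:98775378-98775627, minus strand: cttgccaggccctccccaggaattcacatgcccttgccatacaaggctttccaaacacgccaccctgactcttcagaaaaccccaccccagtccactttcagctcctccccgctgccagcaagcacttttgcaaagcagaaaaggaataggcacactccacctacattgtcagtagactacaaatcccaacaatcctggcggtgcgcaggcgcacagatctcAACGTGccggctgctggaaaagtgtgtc
CACGTG began 153 bases before the start of Bhlhe41, 166 before that of Per1 and 60 before that of Cry1. Cry1 also held CACGTT at 79 bases, and Cry2 and Nr1d1 held it at 166 and 28 bases before their starts. The D-box TTANGTAA and the cAMP response element TGACGTCA were in none of the windows of the 8 genes, against 2.06% and 1.55% of all promoters. A match or its absence describes the letters in these windows only.

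Stimulation raised Bhlhe40 and Per2 and lowered Nfil3 and Dbp in both genotypes, calls that held with any 1 library left out. In cKO cells 7 of 10 were called at an adjusted p under 0.05 (edgeR quasi-likelihood test, Benjamini-Hochberg adjusted over all genes tested), 5 higher and 2 lower, where 53.8% of all genes tested were called (26.7% higher and 27.1% lower). In control cells 6 of 10 were called, 4 higher and 2 lower, where 50.6% of all genes were called (25.4% higher and 25.2% lower). The shares called in either direction lay nearer to those of all genes than the shares called higher, which were above them in both genotypes. With only 10 genes these counts do not set the clock genes apart. Bhlhe40, Per2, Cry1 and Nr1d1 were higher in both genotypes, Nfil3 and Dbp were lower in both, and Per1, Cry2 and Nr1d2 were called in neither. Bhlhe41 was called in cKO cells alone, and the difference between its responses was not called (adjusted p = 1, edgeR). The median log2 fold change of the 10 genes was 0.39 in cKO and 0.26 in control cells, against -0.0087 and 0.0023 over all genes tested. These are bulk RNA levels, in which fewer cells of a type and less RNA per cell cannot be told apart.

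**Figure D1:**
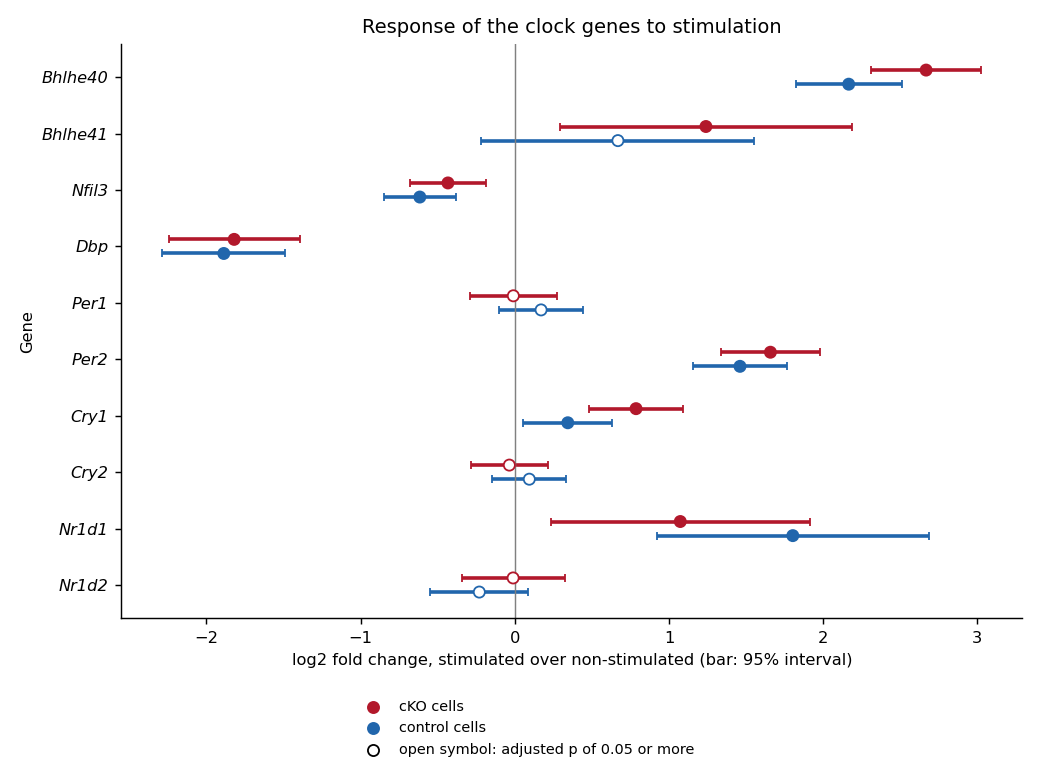
Log2 fold change of each of the 10 genes, stimulated over non-stimulated, in cKO and control cells, with 95% intervals from the edgeR fit; filled symbols have an adjusted p under 0.05. Bhlhe40 lies farthest to the right, at 2.67 and 2.17, and Dbp farthest to the left, at -1.82 and -1.89.

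The DEC factors are basic helix-loop-helix repressors that compete for E-boxes. Bhlhe40 (DEC1) had 819.9, 852, 838 and 853 CPM in stimulated cKO libraries, against 106, 155 and 136 CPM in non-stimulated cKO libraries. It had 757, 782, 751, 821 and 848 CPM in stimulated control libraries, against 142, 145 and 243 CPM in non-stimulated control libraries. Every stimulated library was far above every non-stimulated one. The coefficient of variation was 1.85% in stimulated and 18.8% in non-stimulated cKO cells, and 5.28% in stimulated and 32.7% in non-stimulated control cells, where 1 library stood at 243 CPM and the others lay close together. Stimulation raised Bhlhe40 by 2.67 ± 0.17 on the log2 scale in cKO cells, a 6.35-fold rise with a 95% interval of 4.95 to 8.15 (adjusted p = 2e-09, edgeR). In control cells the rise was 2.17 ± 0.16, or 4.49-fold with an interval of 3.54 to 5.69 (adjusted p = 1.1e-08).

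Bhlhe41 (DEC2), the close paralogue, was the least even of the 10 genes among stimulated libraries. Its values were 15.3, 31.9, 57.0 and 27.0 CPM in stimulated cKO libraries, against 9.98, 18.1 and 13.4 CPM in non-stimulated cKO libraries. It had 20.4, 36.3, 26.1, 35.0 and 56.6 CPM in stimulated control libraries, against 24.4, 16.5 and 24.8 CPM in non-stimulated control libraries. The groups overlapped in both genotypes, and the highest cKO value came from the library with the high mitochondrial share. The increase was 1.24 ± 0.44 in cKO cells (adjusted p = 0.03, edgeR), while the 0.67 ± 0.41 of control cells was not called (adjusted p = 0.19, 95% interval -0.22 to 1.55). Without stimulated cKO replicate 3 the cKO value was 0.85 with an adjusted p of 0.085, and without non-stimulated cKO replicates 1 or 3 the adjusted p was 0.11 or 0.081. With no filter on low counts, or with only the groups compared in the fit, it was 0.059 or 0.06. Of the 6720 exon bases of Bhlhe41, 1280 lie opposite those of Gm43909, which averaged at most 1.00 CPM in any group. Bhlhe40 and Cry2 share exon bases with genes on the opposite strand at no more than 0.243 CPM in any library.

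**Figure D2:**
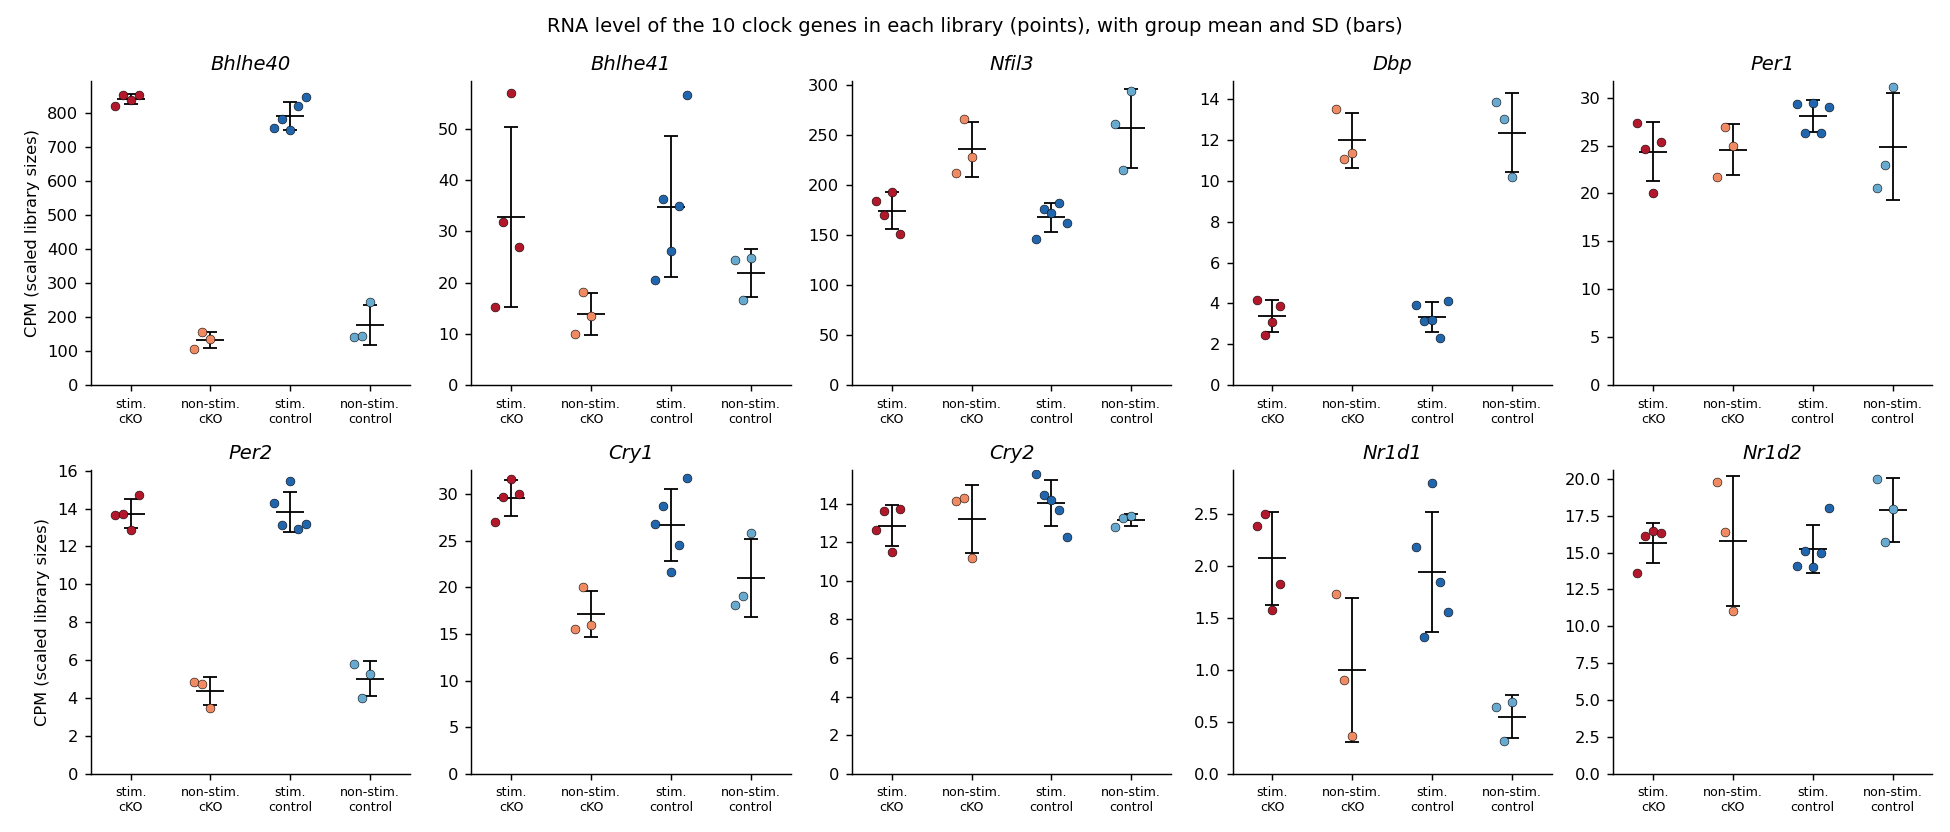
CPM of each of the 10 genes in all 15 libraries (points), by group, with the group mean and SD as bars and axes that start at 0. The stimulated and non-stimulated libraries separate in both genotypes for Bhlhe40, Per2, Nfil3 and Dbp, and mix for Per1, Cry2 and Nr1d2.

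Nfil3 and Dbp encode the repressor and an activator of the D-box, and both fell on stimulation. Nfil3 had 184, 170.3, 193 and 151 CPM in stimulated cKO libraries, against 213, 267 and 228 CPM in non-stimulated cKO libraries. It had 146, 177, 172, 182 and 162 CPM in stimulated control libraries, against 261, 215 and 295 CPM in non-stimulated control libraries. No stimulated library reached the level of a non-stimulated one of its genotype. Nfil3 fell by 0.43 ± 0.12 on the log2 scale in cKO cells (adjusted p = 0.0044, edgeR), which is 1.35-fold lower, and by 0.62 ± 0.11 in control cells (adjusted p = 0.00015), which is 1.53-fold lower.

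Dbp changed more than Nfil3, with 95% intervals that did not overlap (-2.24 to -1.40 against -0.68 to -0.19 in cKO cells, and -2.29 to -1.49 against -0.85 to -0.38 in control cells). It had 4.18, 2.46, 3.08 and 3.87 CPM in stimulated cKO libraries, against 13.5, 11.1 and 11.3 CPM in non-stimulated cKO libraries. Control cells gave 3.94, 3.14, 3.20, 2.29 and 4.10 CPM when stimulated, against 13.9, 13.0 and 10.2 CPM when not. The highest stimulated value of either genotype was below the lowest non-stimulated one. Dbp fell by 1.82 ± 0.20 in cKO cells (adjusted p = 8.7e-07, edgeR) and by 1.89 ± 0.19 in control cells (adjusted p = 2.7e-07), that is 3.53-fold and 3.70-fold lower. The sources used here do not state whether counting used the strand of a read, and 539 of the 2993 exon bases of Dbp lie opposite those of Sphk2, a sphingosine kinase gene. Sphk2 itself was not called, at 0.08 ± 0.16 in cKO and -0.07 ± 0.15 in control cells (adjusted p = 0.7 and 0.75).

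The ratio of the D-box factors within a library, on the per-length TPM scale, was higher in every stimulated library than in any non-stimulated one of its genotype. Nfil3 stood at 35.4 ± 14.8 times Dbp in stimulated and 12.2 ± 2.33 times Dbp in non-stimulated cKO cells (SD, n = 4 and 3), and at 38.1 ± 13.3 times in stimulated and 13.8 ± 4.89 times in non-stimulated control cells (SD, n = 5 and 3). Set against the sum of Dbp, Tef and Hlf, the 3 related activators, the ratios lay closer together. They were then 11.7 ± 2.18 in stimulated and 7.47 ± 1.49 in non-stimulated cKO cells (SD, n = 4 and 3), with ranges that did not overlap. In control cells the stimulated range of 8.90 to 12.3 lay within the non-stimulated range of 6.97 to 12.5. No test was run on these ratios.

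Of the period genes, which encode the PER repressors, Per2 was called and Per1 was not. Per2 had 13.7, 13.7, 12.8 and 14.7 CPM in stimulated cKO libraries, against 4.84, 4.75 and 3.49 CPM in non-stimulated cKO libraries. It had 14.3, 13.2, 15.5, 12.9 and 13.2 CPM in stimulated control libraries, against 5.78, 3.98 and 5.28 CPM in non-stimulated control libraries. The stimulated libraries formed a tight band well above the rest. Per2 rose by 1.66 ± 0.15 in cKO cells, 3.16-fold (adjusted p = 1.1e-07, edgeR), and by 1.46 ± 0.15 in control cells, 2.75-fold (adjusted p = 2.5e-07).

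Per1 was not called in either genotype. It averaged 24.4 ± 3.10 CPM in stimulated and 24.6 ± 2.64 CPM in non-stimulated cKO cells (SD, n = 4 and 3). In control cells it averaged 28.1 ± 1.65 CPM when stimulated and 24.9 ± 5.54 CPM when not (SD, n = 5 and 3). The change was -0.01 in cKO cells, with a 95% interval of -0.29 to 0.27, and 0.17 in control cells, with an interval of -0.10 to 0.44 (adjusted p = 0.96 and 0.29, edgeR). Without non-stimulated control replicate 3, the highest of its group at 31.1 CPM, the control change was 0.37 and was called (adjusted p = 0.022). The Per1 to Per2 ratio in TPM was 4.52 ± 0.241 in stimulated and 9.92 ± 0.673 in non-stimulated cKO cells, and 4.62 ± 0.929 in stimulated and 12.2 ± 3.27 in non-stimulated control cells (SD, n = 4, 3, 5 and 3).

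Of the cryptochromes, the partners of PER in repression, Cry1 was called and Cry2 was not. Cry1 had 27.0, 29.7, 31.7 and 30.1 CPM in stimulated cKO libraries, against 15.5, 20.0 and 16.0 CPM in non-stimulated cKO libraries. It had 26.8, 28.7, 21.7, 24.6 and 31.8 CPM in stimulated control libraries, against 18.1, 19.1 and 25.8 CPM in non-stimulated control libraries. The cKO groups were apart, whereas the control groups overlapped through the single non-stimulated library at 25.8 CPM. Cry1 rose by 0.79 ± 0.14 in cKO cells, 1.72-fold (adjusted p = 0.00019, edgeR). In control cells it rose by 0.34 ± 0.14, 1.27-fold (adjusted p = 0.044). That second call was lost with only the groups compared in the fit (adjusted p = 0.067) and without stimulated control replicate 1, 2 or 5 or non-stimulated control replicate 1 or 2 (adjusted p = 0.056, 0.074, 0.11, 0.2 and 0.16). Without non-stimulated control replicate 3, the library at 25.8 CPM, the change was 0.52 (adjusted p = 0.0057).

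Cry2 stayed within 11.2 to 15.5 CPM over all 15 libraries. It averaged 12.9 ± 1.05 CPM in stimulated and 13.2 ± 1.77 CPM in non-stimulated cKO cells (SD, n = 4 and 3), a log2 change of -0.04 with a 95% interval of -0.29 to 0.21. In control cells it averaged 14.0 ± 1.20 CPM when stimulated and 13.1 ± 0.301 CPM when not (SD, n = 5 and 3), a change of 0.09 with an interval of -0.15 to 0.33. Neither change was called (adjusted p = 0.82 and 0.52, edgeR).

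The REV-ERB receptors bind haem and repress the positive arm of the loop. Nr1d1 (REV-ERBα) was the scarcest of the 10 genes, with 6 to 61 counts a library and 444 in all, so its values carry more counting error. It had 2.38, 2.50, 1.57 and 1.83 CPM in stimulated cKO libraries, against 1.73, 0.897 and 0.363 CPM in non-stimulated cKO libraries. It had 2.18, 1.32, 2.80, 1.84 and 1.56 CPM in stimulated control libraries, against 0.642, 0.310 and 0.692 CPM in non-stimulated control libraries. The control groups were apart, and the cKO groups overlapped through non-stimulated cKO replicate 1. Nr1d1 rose by 1.07 ± 0.40 in cKO cells, 2.10-fold with an interval of 1.17 to 3.77 (adjusted p = 0.031, edgeR), and by 1.80 ± 0.42 in control cells, 3.49-fold with an interval of 1.89 to 6.43 (adjusted p = 0.0016). The cKO call was lost without stimulated cKO replicate 1 or 2 or non-stimulated cKO replicate 2 or 3 (adjusted p = 0.063, 0.068, 0.086 and 0.16), and the value was 1.74 without non-stimulated cKO replicate 1.

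Nr1d1 lies opposite Thra, the gene of a thyroid hormone receptor, with 263 of its 3077 exon bases shared. Thra moved the other way: it averaged 7.42 ± 1.70 CPM in stimulated and 14.9 ± 3.35 CPM in non-stimulated cKO cells (SD, n = 4 and 3), and 7.98 ± 1.81 CPM in stimulated and 15.1 ± 3.20 CPM in non-stimulated control cells (SD, n = 5 and 3). It fell by 1.00 ± 0.22 in cKO cells and by 0.92 ± 0.21 in control cells (adjusted p = 0.00094 and 0.0013, edgeR). How far reads of Thra enter the Nr1d1 counts was not tested.

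Nr1d2 (REV-ERBβ) was called in neither genotype. It averaged 15.6 ± 1.35 CPM in stimulated and 15.8 ± 4.40 CPM in non-stimulated cKO cells (SD, n = 4 and 3), a change of -0.01 with a 95% interval of -0.35 to 0.32. In control cells it averaged 15.3 ± 1.63 CPM when stimulated and 17.9 ± 2.15 CPM when not (SD, n = 5 and 3), a change of -0.23 with an interval of -0.55 to 0.09 (adjusted p = 0.96 and 0.22, edgeR). The receptors stood closer together in stimulated cells, without a test: in TPM, Nr1d2 was 5.14 ± 1.64 times Nr1d1 in stimulated and 13.1 ± 5.89 times in non-stimulated cKO cells, and 5.61 ± 1.89 times in stimulated and 26.1 ± 11.3 times in non-stimulated control cells (SD, n = 4, 3, 5 and 3).

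On the per-length TPM scale the 10 genes spanned a wide range of levels. By mean TPM over 15 libraries, Bhlhe40 stood at the 97.2 percentile of the genes tested and Nfil3 at the 94.6 percentile, while Nr1d1 stood at the 12.9 percentile. In stimulated cKO cells the order was Bhlhe40 (mean 285.8 TPM), Nfil3 (91.2 TPM), Cry1 (11.2 TPM), Per1 (10.5 TPM), Bhlhe41 (8.68 TPM), Cry2 (4.59 TPM), Nr1d2 (3.97 TPM), Dbp (2.96 TPM), Per2 (2.33 TPM) and Nr1d1 (0.818 TPM). Neighbours from Cry1 down to Per2 overlapped between libraries, whereas Bhlhe40, Nfil3 and Cry1 stood apart from one another, as did Per2 and Nr1d1.

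In non-stimulated cKO cells Nfil3 led at 131 TPM, ahead of Bhlhe40 at 46.7 TPM and of Dbp, now the third, at 10.9 TPM. Per1 at 7.59 TPM and Cry1 at 6.77 TPM overlapped, as did Cry2 at 4.65 TPM, Nr1d2 at 4.15 TPM and Bhlhe41 at 3.04 TPM as neighbours. Per2 at 0.768 TPM and Nr1d1 at 0.398 TPM came last and overlapped. The change of leader was plain in the ratio of Bhlhe40 to Nfil3 within each library, which was 2.84 to 3.62 in stimulated and 0.315 to 0.379 in non-stimulated cKO cells.

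Stimulated control cells had Bhlhe40 at 279.8 TPM, Nfil3 at 92.5 TPM, Per1 at 11.1 TPM, Cry1 at 10.4 TPM, Bhlhe41 at 8.18 TPM, Cry2 at 5.28 TPM, Nr1d2 at 4.01 TPM, Dbp at 2.61 TPM, Per2 at 2.40 TPM and Nr1d1 at 0.756 TPM, and neighbours from Per1 down to Per2 overlapped. In non-stimulated control cells the order was Nfil3 at 127.5 TPM, Bhlhe40 at 55.8 TPM, Dbp at 9.73 TPM, Per1 at 9.42 TPM, Cry1 at 6.84 TPM, Bhlhe41 at 5.14 TPM, Nr1d2 at 4.57 TPM, Cry2 at 4.20 TPM, Per2 at 0.790 TPM and Nr1d1 at 0.194 TPM, and neighbours from Dbp down to Cry2 overlapped. The Bhlhe40 to Nfil3 ratio was 2.81 to 3.38 in stimulated and 0.345 to 0.531 in non-stimulated control libraries, so in both genotypes Bhlhe40 passed Nfil3 in every stimulated library and in no other.

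**Figure D3:**
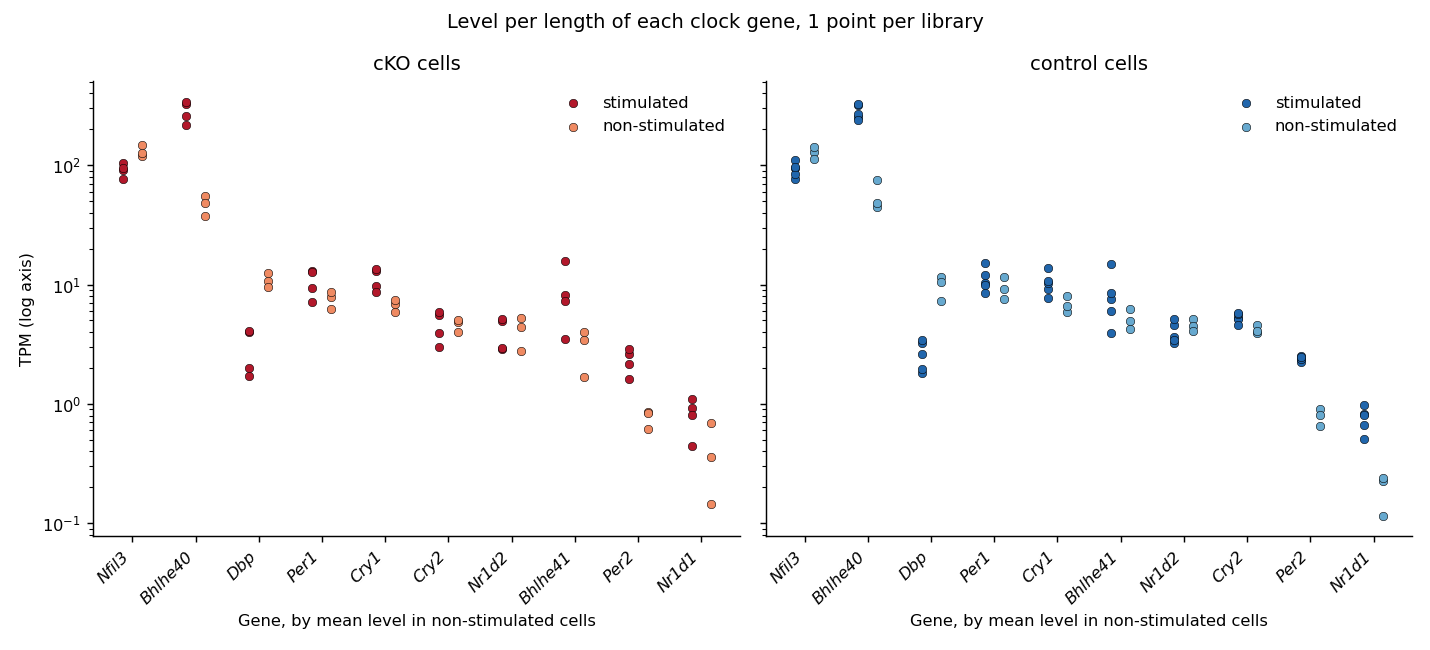
Level of each of the 10 genes in TPM on a log axis, by group, with 1 point a library. Bhlhe40 lies above Nfil3 in stimulated cells (mean 285.8 and 91.2 TPM in cKO cells) and below it in non-stimulated cells (46.7 and 131 TPM), and Dbp changes its place in the order.

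The cKO genotype was set against control within each condition, and none of the 10 genes was called. In stimulated cells edgeR called 0 of 10, 0 had an unadjusted p under 0.05 and DESeq2 also called 0, where 0.0064% of all genes, which is Asb2 alone, were called. The 95% intervals of the cKO over control change ran from -0.16 to 0.27 for Nfil3, from -0.20 to 0.37 for Bhlhe40, from -0.27 to 0.25 for Per2, from -0.11 to 0.41 for Cry1 and from -0.34 to 0.10 for Cry2. They were wider for Bhlhe41 (-0.88 to 0.70), Nr1d1 (-0.59 to 0.79) and Dbp (-0.38 to 0.43). Per1 had the smallest unadjusted p, 0.1, with a change of -0.20 ± 0.12 and an interval of -0.45 to 0.05, and Nr1d2 had an interval of -0.26 to 0.33. All 10 genes overlapped between the genotypes. The share of all genes that did so is not given here, so this count does not set the 10 genes apart.

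In non-stimulated cells edgeR again called 0 of 10, DESeq2 called 0 and 1 had an unadjusted p under 0.05, where 0% of all genes were called. That gene was Bhlhe40, with 106, 155 and 136 CPM in cKO libraries against 142, 145 and 243 CPM in control libraries. Its change was -0.41 ± 0.17 with an interval of -0.77 to -0.06 (unadjusted p = 0.023, adjusted p = 1, edgeR), and it was -0.11 without control replicate 3, the library at 243 CPM. Cry1 changed by -0.29 ± 0.15 (unadjusted p = 0.07) and by -0.12 without that library, and Nr1d1 by 0.83 ± 0.47 (unadjusted p = 0.096), both with an adjusted p of 1. With 1 library left out the Nr1d1 value ran from 0.17, without cKO replicate 1, to 1.24, without cKO replicate 3. The intervals of the others were -0.39 to 0.14 for Nfil3, -0.47 to 0.39 for Dbp, -0.32 to 0.28 for Per1, -0.55 to 0.14 for Per2, -0.26 to 0.27 for Cry2, -0.54 to 0.17 for Nr1d2 and -1.66 to 0.33 for Bhlhe41. The ranges overlapped for all 10 genes here too, again without the share of all genes beside it.

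**Figure D4:**
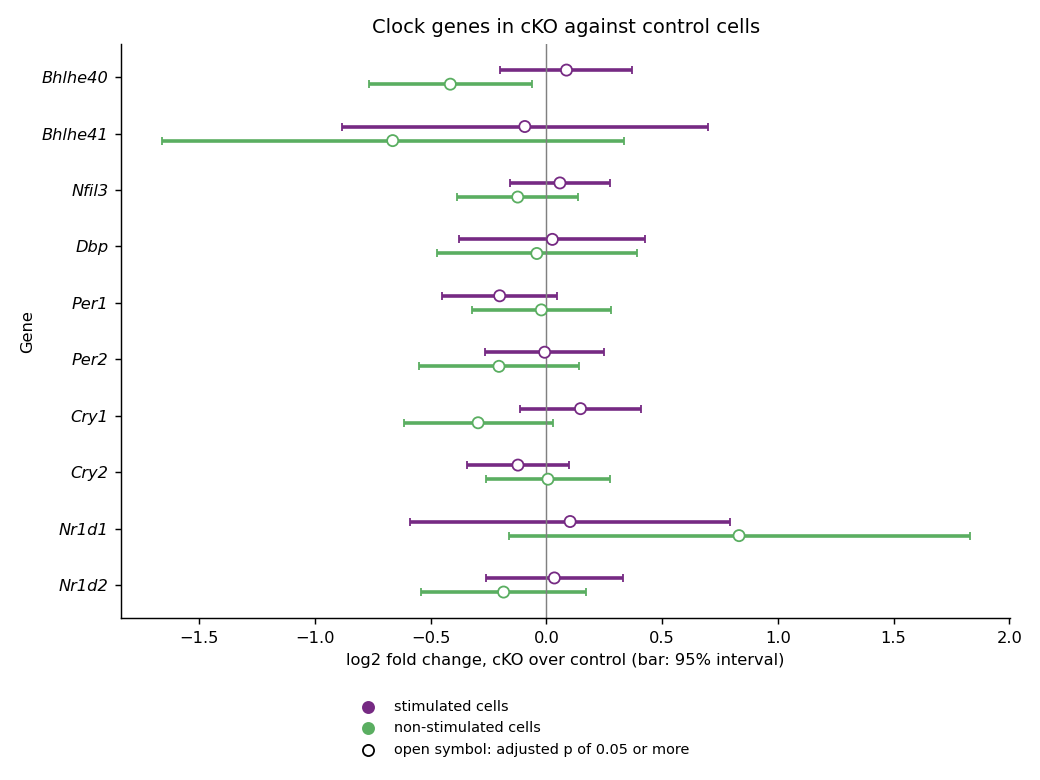
Log2 fold change of each of the 10 genes, cKO over control, in stimulated and in non-stimulated cells, with 95% intervals from the edgeR fit. All symbols are open, since no adjusted p was under 0.05, and Bhlhe40 in non-stimulated cells (-0.41) is the only one whose interval leaves out 0.

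The stimulation responses of the genotypes were also compared with each other, which uses the same libraries as the comparisons above. edgeR called 0 of 10 genes, DESeq2 called 0 and 2 had an unadjusted p under 0.05, where 0% of all genes were called. The response of Bhlhe40 was 0.50 ± 0.21 larger in cKO than in control cells (interval 0.05 to 0.95, unadjusted p = 0.031, adjusted p = 1), and that of Cry1 was 0.44 ± 0.20 larger (interval 0.03 to 0.86, unadjusted p = 0.037, adjusted p = 1). Without non-stimulated control replicate 3 these differences were 0.20 and 0.27. For Nr1d1 the difference was -0.73 with an interval of -1.94 to 0.48, and for Bhlhe41 it was 0.57 with an interval of -0.70 to 1.84. The Nr1d1 difference was -0.06 without non-stimulated cKO replicate 1 and -1.14 without non-stimulated cKO replicate 3, and that of Bhlhe41 was 0.17 without stimulated cKO replicate 3 and 0.81 without stimulated control replicate 5. The other intervals were -0.16 to 0.52 for Nfil3, -0.52 to 0.66 for Dbp, -0.57 to 0.21 for Per1, -0.23 to 0.63 for Per2, -0.48 to 0.22 for Cry2 and -0.24 to 0.68 for Nr1d2.

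Around the 10 genes, 24 other clock genes were listed by role and 23 were tested. Stimulation raised 7 and lowered 6 of them in each genotype, with medians of 0.11 in cKO and -0.0052 in control cells, and none was called between the genotypes or between their responses. That is near the 26.7% higher and 27.1% lower of all genes in cKO cells and the 25.4% and 25.2% in control cells, so the counts do not set these genes apart either. Among the activators, Arntl was called in neither genotype (0.11 in cKO and 0.01 in control cells, adjusted p = 0.44 and 0.92, edgeR). Its paralogue Arntl2 fell by 0.98 ± 0.24 in cKO and by 0.59 ± 0.23 in control cells (adjusted p = 0.002 and 0.04). Npas2, which can stand in for CLOCK, fell by 1.08 ± 0.21 in cKO and by 0.92 ± 0.20 in control cells (adjusted p = 0.00028 and 0.00072). Clock was called higher in control cells only, at 0.33 ± 0.11 against 0.13 ± 0.11 in cKO cells (adjusted p = 0.017 and 0.35), and the difference between these responses was not called (adjusted p = 1).

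The third period gene, Per3, was called in neither genotype, at -0.38 ± 0.25 in cKO and -0.25 ± 0.24 in control cells (adjusted p = 0.21 and 0.42, edgeR). The ROR receptors activate Arntl through the element that REV-ERB occupies. Rora fell by 0.99 ± 0.24 in cKO and by 0.87 ± 0.23 in control cells (adjusted p = 0.0021 and 0.0043). Rorb, at most 0.686 CPM in any library, was called lower in both.

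Of the activators related to DBP, Tef was called in neither genotype (-0.24 in cKO and -0.15 in control cells, adjusted p = 0.13 and 0.35, edgeR). Hlf moved against Dbp: it rose by 1.36 ± 0.37 in cKO and by 1.98 ± 0.36 in control cells (adjusted p = 0.0044 and 0.00016), at a mean of 1.78 CPM or less in every group. Of the genes listed as other repressors, Timeless fell by 0.31 ± 0.11 in cKO cells (adjusted p = 0.02, edgeR). It was not called in control cells (-0.20, adjusted p = 0.1), and Ciart was called in neither.

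Among the enzymes that set how long PER and CRY last, Csnk1e, a kinase of PER, rose by 0.87 ± 0.09 in cKO and by 0.73 ± 0.08 in control cells (adjusted p = 2.6e-07 and 1.3e-06, edgeR). Gsk3b, another clock kinase, rose by 0.32 ± 0.11 in cKO cells (adjusted p = 0.016) and was not called in control cells (0.13 ± 0.10, adjusted p = 0.3), and Csnk1a1 and Csnk1d were called in neither. Fbxw11, a ligase subunit for phosphorylated PER, rose by 0.65 ± 0.08 and 0.45 ± 0.07 (adjusted p = 2.3e-06 and 7e-05), and its paralogue Btrc by 0.48 ± 0.11 and 0.63 ± 0.11 (adjusted p = 0.0012 and 7.7e-05), in cKO and control cells in that order. Usp2, a deubiquitinase that acts on PER1 and BMAL1, averaged 20.3 ± 2.37 CPM in stimulated and 5.91 ± 0.534 CPM in non-stimulated cKO cells (SD, n = 4 and 3), and 20.8 ± 2.09 CPM in stimulated and 9.21 ± 1.70 CPM in non-stimulated control cells (SD, n = 5 and 3). It rose by 1.78 ± 0.15 in cKO and by 1.17 ± 0.14 in control cells (adjusted p = 3.4e-08 and 1.7e-06). Of the outputs, Nampt, which makes a precursor of NAD, rose by 0.91 ± 0.11 and 0.69 ± 0.11, and Wee1, a kinase that holds back mitosis, fell by 0.81 ± 0.09 and 0.85 ± 0.09 in cKO and control cells (adjusted p = 2.9e-06, 3.5e-05, 1.2e-06 and 3.7e-07). Tsc22d3, a glucocorticoid-induced gene, fell by 0.73 ± 0.14 in control cells (adjusted p = 0.00029) and was not called in cKO cells (-0.32, adjusted p = 0.079).

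**Figure D5:**
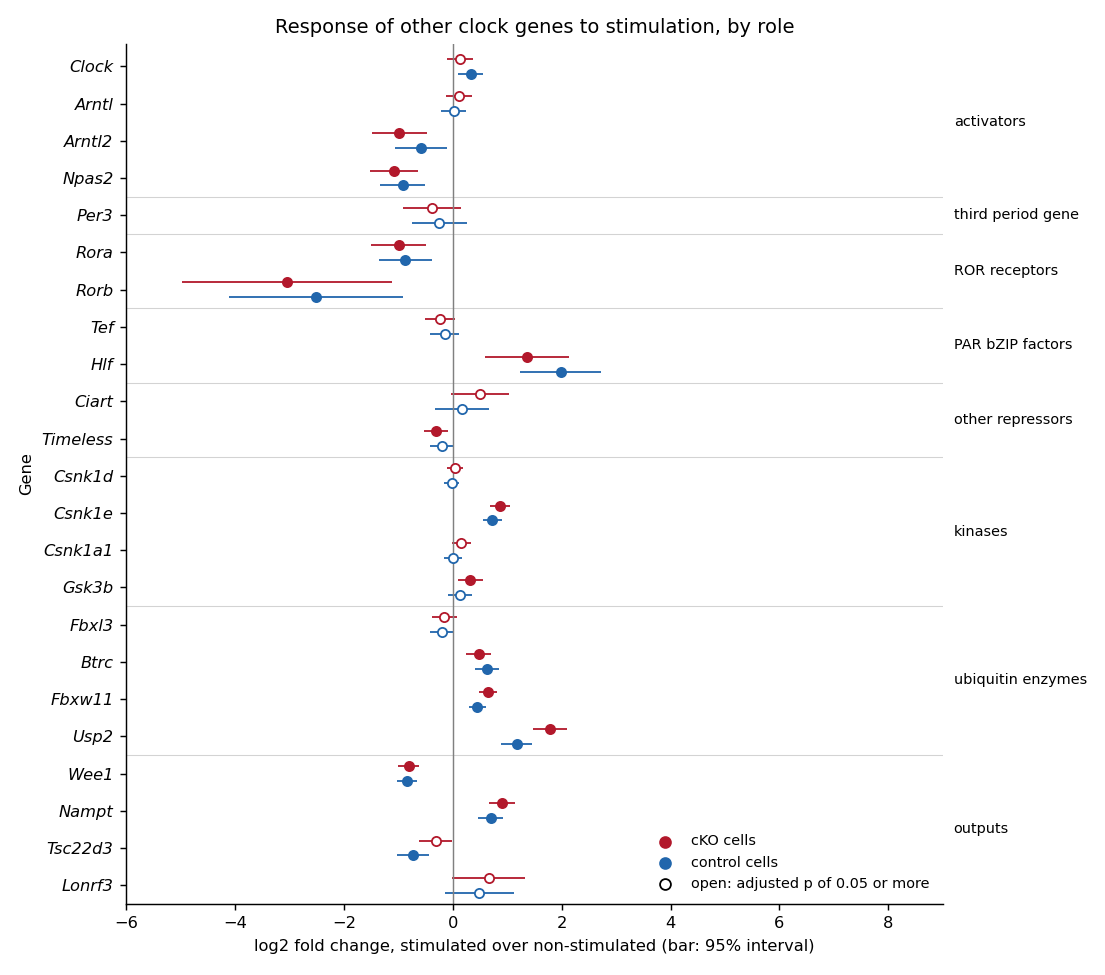
Log2 fold change of the other 23 clock genes tested, stimulated over non-stimulated, in cKO and control cells, grouped by role, with 95% intervals from the edgeR fit; filled symbols have an adjusted p under 0.05. Usp2, Csnk1e, Fbxw11, Btrc and Nampt lie right of 0 and Npas2, Arntl2, Rora and Wee1 left of it in both genotypes.

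Genes linked in mouse T cells to NFIL3 or BHLHE40 were read beside them. Of 10 tested, 9 rose and Tox fell in each genotype. Of all genes, 26.7% were higher and 27.1% lower in cKO cells, and 25.4% and 25.2% in control cells. The list was chosen with earlier results of these data known and holds mainly cytokine genes. Its share is therefore not a test of a link to either factor. None of the 10 was called between the genotypes, where 0.0064% of all genes were called with stimulation and 0% without it. Il10 averaged 576 ± 170.4 CPM in stimulated and 99.2 ± 22.1 CPM in non-stimulated cKO cells (SD, n = 4 and 3), a change of 2.54 ± 0.33, and 533 ± 139 CPM in stimulated and 110.4 ± 38.9 CPM in non-stimulated control cells (SD, n = 5 and 3), a change of 2.27 ± 0.32 (adjusted p = 2.8e-05 and 5.7e-05, edgeR). Csf2, the gene of GM-CSF, rose by 5.09 ± 0.30 in cKO and by 4.80 ± 0.29 in control cells (adjusted p = 1.1e-08 and 1.2e-08). Il3 averaged 37.4 ± 13.8 CPM in stimulated cKO cells and 30.3 ± 9.56 CPM in stimulated control cells (SD, n = 4 and 5), with 0 counts in all 6 non-stimulated libraries.

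The genes whose profiles over the 15 libraries lay closest to those of 4 of the 10 genes were found among 9506 genes with a mean of at least 5 CPM. That pool left out the 10 genes themselves, predicted genes and clone identifiers. Closeness was the root mean square difference of log2 CPM, each gene centred on its own mean. Nearest to Nfil3 were Mcl1 (0.0763), Ubl3 (0.103) and Asf1b (0.111), and nearest to Bhlhe40 were Myo10 (0.176), Cd274 (0.185) and Nfkbia (0.187). Nearest to Dbp were Sord (0.187), Slc25a23 (0.203) and Ttyh3 (0.203). Nr1d1 had no gene nearer than Slc4a11 (0.385), Top1mt (0.402) and Atad3a (0.408). Nr1d1 itself had at most 2.80 CPM in any library, so genes of its level were outside the pool. These distances also grow with counting error and with the size of a change, so they do not rank the 4 genes.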

How the data were processed

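RNA of 15 libraries of cultured mouse Th2 cells was sequenced from a stranded total RNA kit with ribosomal RNA depletion, per the labels' protocols. The authors deposited estimated counts and TPM values for 56748 genes; the estimated counts were not scaled between libraries, and the deposited TPM values are scaled within each. The submitters' processing notes name Salmon 1.10.1, STAR 2.7.9a and cutadapt 3.4, with GRCm39 as the genome; their roles, the annotation release and the use of strand in counting are not given in the sources used here.

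Estimated counts were rounded to whole numbers and analysed in R 4.3.3 with edgeR 4.0.16. Genes were kept by filterByExpr (15619), TMM factors scaled the libraries, and 1 robust quasi-likelihood fit with 1 mean per group covered all 15 libraries. Tests were two-sided, with Benjamini-Hochberg adjustment over all genes tested, and calls needed an adjusted p under 0.05. Errors beside log2 fold changes are standard errors from that fit, and CPM use the scaled library sizes. On simulated counts of the stimulated against non-stimulated cKO comparison with 200 of 15619 genes changed 2-fold, 68% were recovered. In the data 53.8% of genes were called in that comparison, so the adjustment is stricter in the simulation. The 68% is therefore not the share that would be found in the data. Library totals of 17.1 to 24.2 M set the precision, and the biological coefficient of variation was 15.4%. Levels of different genes were compared in TPM only, without a test.

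The genes were given by name, and they and the lists were chosen with earlier results of these data known. The rule for named genes takes all 10, Asb2, the neighbours that share exon bases, at most 3 genes a role with the smallest p from the other clock genes, Il10, Csf2 and Il3, and 3 nearest profiles for 4 genes. Names outside this rule, such as Arntl, Ciart, Tox and single genes of the marker lists, were chosen after their values were seen. A gene that the rule takes is not reported here and is in no count of a list. The alternatives tried were size factors by relative log expression, DESeq2 1.42.0, no filter on counts, at least 1 CPM in 3 libraries, only the groups compared, a replicate block, limma 3.58.1 on log2 of TPM plus 0.1 or plus 1, and leaving out each library. Promoters come from RefSeq (GRCm38.p6) and exon overlaps from GENCODE M21 (GRCm38); Bhlhe40 and Per2 had no entry among the promoters. No coordinate was converted between builds. No pair of libraries had identical values.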

Additional observations from a re-analysis of the deposited data

Results flagged for a closer look

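Nr1d2 had a library far from the others of its group in 2 of the 20 groups of 4 or 5 libraries checked, which are the 10 genes in both stimulated groups. Stimulated cKO replicate 1 had 13.6 CPM, while the other 3 libraries had 16.1 to 16.4 CPM. Stimulated control replicate 5 had 18.0 CPM, while the other 4 libraries had 14.1 to 15.1 CPM. Chance alone flags about 1 in 20 such groups. Nr1d2 was called in no comparison.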

How the results depend on the processing

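The count of the 10 genes called on stimulation was 6 to 7 in cKO and 5 to 6 in control cells under the other settings, 5 to 7 in both when libraries were left out, and 0 under every setting for the genotype comparisons and the difference between responses. Nfil3, Bhlhe40, Per2 and Dbp were called under every library left out. Over all genes, calls between genotypes were 1 in stimulated cells against 5 with DESeq2; 0 in non-stimulated cells against 4 with DESeq2, 3 on TPM plus 1 and 1 with no filter; and 0 for the difference against 2 with DESeq2 or TPM plus 1. At an unadjusted p under 0.05 edgeR had 283, 402 and 605 genes in these comparisons. On TPM plus 0.1 the median of all genes shifted by 0.142 in the control response, 0.149 between genotypes without stimulation and -0.211 for the difference, and the share of calls that were higher was 64% in control and 42.9% in cKO cells, against 50.2% and 49.7% on counts. TPM plus 1 shrank scarce genes, with Per2 at 0.90 and 0.93 and Nr1d1 at 0.38 and 0.55 in cKO and control cells.

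Same-numbered libraries did not deviate together (median r 0.0357 over 19 pairs, 3 above 0.1), and 4 of 15 correlated best with their own number, so the numbers were not taken as pairs. With the replicate block 8329 genes were called in cKO and 7411 in control cells against 8398 and 7897, Cry1 in control cells was 0.28 and lost its call (adjusted p = 0.12), and signs turned for Per1 on stimulation in cKO cells (0.00081), Bhlhe41 between genotypes with stimulation (0.0874) and Cry2 without it (-0.00078).

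The other changes of sign were all in values that were not called, and their cause was not tested. On stimulation in cKO cells Per1 was 0.00384 with no filter, 0.00095 with only the groups compared, and 0.441 and 0.402 on TPM plus 0.1 and plus 1, and Nr1d2 was 0.00199 with no filter. The TPM values follow, plus 0.1 first. Between genotypes with stimulation they were -0.0182 and -0.0181 for Nfil3, 0.0286 and 0.0322 for Bhlhe41, and -0.0439 and -0.0311 for Nr1d2. Without stimulation they were 0.0378 and 0.0375 for Nfil3 and 0.185 and 0.169 for Dbp. For the difference they were -0.0560 and -0.0556 for Nfil3, 0.211 and 0.190 for Per1, -0.0367 and -0.0303 for Per2, and -0.0689 and -0.0703 for Dbp.

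With 1 library left out, values on stimulation in cKO cells ran from -0.142 to 0.0292 for Cry2, -0.211 to 0.190 for Nr1d2 and -0.0874 to 0.0772 for Per1. Between genotypes with stimulation they ran from -0.497 to 0.150 for Bhlhe41, -0.0942 to 0.165 for Dbp and -0.0340 to 0.0399 for Per2. Without stimulation they ran from -0.0559 to 0.115 for Cry2, -0.166 to 0.0486 for Dbp, -0.384 to 0.0171 for Nr1d2 and -0.141 to 0.173 for Per1, and for the difference from -0.0527 to 0.206 for Dbp.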

Other observations

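Usp2 showed the smallest unadjusted p of the listed clock genes for the difference between the stimulation responses, at 0.61 ± 0.20 larger in cKO than in control cells (unadjusted p = 0.006, adjusted p = 1, edgeR). Its stimulated levels overlapped, at 16.8 to 22.1 CPM in cKO and 17.8 to 23.6 CPM in control libraries, and its non-stimulated levels did not, at 5.31 to 6.31 CPM in cKO and 7.29 to 10.5 CPM in control libraries. This gene was picked out after its values were seen.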
